A study of Rattus norvegicus with 12 samples.

Results

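The genes described here are 10 genes of amino acid breakdown in the rat hepatocyte that were listed as periportal, namely Sds, Hal, Etnppl, Aspg, Amdhd1, Tat, Got1, Slc7a2, Aass and Prodh1. They were chosen by name, with earlier results of these data in view and with no threshold, from the 32883 genes of the count matrices. How sharply each one is zonated and how often they were counted together is therefore a description and carries no test. The study profiled livers of healthy male rats on chow. Total liver homogenate (TLH) cells came from 2 DA (Dark Agouti) and 2 LEW (Lewis) rats, immune-enriched cells from 1 DA and 1 LEW rat, single nuclei of snap-frozen liver from 2 DA and 2 LEW rats, and Visium spots from sections A and B of Wistar liver. DA and LEW are inbred strains, and the labels name no altered allele and no agent for any group. The series text gave ages of 8 to 10 weeks and the methods 16 to 18 weeks, and names attached to the DA and LEW TLH libraries gave 10 and 13 weeks and those of both immune-enriched libraries 9 weeks. The rats could eat chow freely, and whether food was withdrawn before the liver was taken, and at which hour it was taken, were not given in the sources used here.

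Periportal hepatocytes receive blood first, from the portal vein and the hepatic artery, and are known as the site where amino acids are broken down for glucose and urea, whereas pericentral hepatocytes around the central vein make glutamine and carry much of the drug metabolism. Many enzymes of amino acid breakdown are induced in liver by glucagon through cyclic AMP and by glucocorticoids. Sds (serine dehydratase) turns serine into pyruvate and ammonia, and Hal (histidine ammonia-lyase) and Amdhd1 (imidazolonepropionase) act in the breakdown of histidine. Tat (tyrosine aminotransferase) opens the breakdown of tyrosine, Aass (aminoadipate-semialdehyde synthase) that of lysine and Prodh1 (proline dehydrogenase) that of proline. Aspg is an asparaginase, Got1 the cytosolic aspartate aminotransferase, and Slc7a2 a carrier of arginine, lysine and ornithine at the cell membrane. Etnppl is a phospholyase that splits phosphoethanolamine and releases ammonia, so it is not an enzyme of amino acid breakdown in the narrow sense.

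The RefSeq promoter table (GRCr8) held 5 of the 10 members, Aass, Aspg, Etnppl, Got1 and Tat. The 250 bases before the start are shown for Aspg, the most zonated member in nuclei, for Etnppl, the member that differed between strains in TLH cells, and for Got1 and Tat, with lower mean zonation ratios in nuclei that varied between rats. Capitals mark CCAAT on either strand (ATTGG where the match is on the other strand).

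Aspg, chr6:136997773-136998022, plus strand: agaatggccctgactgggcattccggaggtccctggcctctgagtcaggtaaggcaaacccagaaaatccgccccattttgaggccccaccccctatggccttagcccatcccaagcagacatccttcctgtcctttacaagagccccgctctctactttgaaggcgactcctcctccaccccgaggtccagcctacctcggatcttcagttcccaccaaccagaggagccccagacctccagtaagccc
Etnppl (most upstream of 3 starts), chr2:221846960-221847209, plus strand: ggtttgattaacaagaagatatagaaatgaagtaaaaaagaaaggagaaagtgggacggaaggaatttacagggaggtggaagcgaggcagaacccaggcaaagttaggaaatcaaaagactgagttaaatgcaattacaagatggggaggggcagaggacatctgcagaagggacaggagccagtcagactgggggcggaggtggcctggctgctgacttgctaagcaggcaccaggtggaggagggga
Got1, chr1:252329872-252330121, minus strand: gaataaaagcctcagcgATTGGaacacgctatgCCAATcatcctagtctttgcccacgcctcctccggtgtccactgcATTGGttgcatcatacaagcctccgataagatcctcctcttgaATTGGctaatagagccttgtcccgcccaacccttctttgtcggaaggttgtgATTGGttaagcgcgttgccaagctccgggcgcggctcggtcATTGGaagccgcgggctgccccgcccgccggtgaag
Tat, chr19:54856354-54856603, plus strand: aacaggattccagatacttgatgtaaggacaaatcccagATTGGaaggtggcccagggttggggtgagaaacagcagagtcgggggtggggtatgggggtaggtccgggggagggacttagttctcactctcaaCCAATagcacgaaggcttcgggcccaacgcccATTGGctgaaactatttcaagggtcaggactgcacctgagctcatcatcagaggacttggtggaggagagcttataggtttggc

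CCAAT occurred 6 times in the Got1 window and 3 times in that of Tat, and was not found in those of Aspg and Etnppl. Of all 33469 windows of this length, 34.0% held it. The cyclic AMP element core TGACG (in 18.2% of windows), its full form TGACGTCA (1.59%), TTGCGCAA of C/EBP (0.140%), the glucocorticoid element core TGTTCT (17.5%), CAAAGTCCA of HNF4 (0.338%), the HNF1 palindrome (0.0448%) and TATAAA (12.9%) were searched on both strands as well. TGACG lies within TGACGTCA, and the other motifs do not overlap. None of these was found in the windows printed. Of the windows not printed, that of Aass held TGACG and 3 CCAAT, and that of the most downstream start of Etnppl held TGTTCT.

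Cells and nuclei were grouped by expression and named from marker genes, with the 10 members left out of the genes that built the map. Hepatocyte-like clusters held 16137 of 23036 TLH cells, 11256 of 12525 nuclei and 1767 of 3840 immune-enriched cells. Median depth per kept cell was 1794 to 2546 UMIs (unique molecular identifiers, counted transcripts) in TLH libraries, 1542 to 2059 in nuclei, and 13773 and 14241 per Visium spot. Hepatocyte-like cells of the immune-enriched libraries were far deeper, with medians of 27358 UMIs in 224 DA cells and 16626 in 1543 LEW cells. RNA released from broken hepatocytes can be counted with other cells in droplets, so levels are set beside those in endothelial-like and macrophage-like cells. Between pairs of nuclei libraries 1 to 6 kept barcodes were shared. TLH and immune-enriched matrices carried no gene names and were read in the row order of the nuclei.

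In immune-enriched libraries all 10 members were higher in hepatocyte-like than in endothelial-like and macrophage-like cells. Members alone were compared between classes, here and in the TLH cells and nuclei below. No share of all genes therefore stands beside these counts. Levels are given as CPM, the UMIs of a gene summed over the cells of a class and scaled by all UMIs of that class. Sds stood at 43.6 CPM in DA (exact 95% Poisson interval 38.0 to 49.8) and 121 CPM in LEW (117 to 125) in hepatocyte-like cells. In macrophage-like cells no Sds UMI was counted in DA, which allows up to 4.13 CPM, and 4.47 CPM in LEW (1.80 to 9.21). Tat stood at 965 and 306 CPM in hepatocyte-like cells and at 7.84 (3.15 to 16.2) and 10.2 CPM (5.84 to 16.6) in macrophage-like cells. These intervals cover counting error only. With 1 rat a strain there is no replicate, and no comparison between strains was made in these libraries.

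TLH libraries separated the classes less. With 10 CPM added to both, Sds was 1.36 to 2.79 times higher in hepatocyte-like than in endothelial-like cells over the 4 rats, Tat 1.41 to 1.84 times and Hal 1.009 to 1.098 times. In every rat 9 of 10 members were higher in hepatocyte-like cells than in both other classes, the exception being Aass at 3.52 to 4.08 CPM. For Aass this rests on LEW 1 alone, where its ratio to endothelial-like cells was 0.935 (10 CPM added to both). Beside lymphocyte-like TLH cells (100 to 202 a rat) Hal did not stand higher in every rat, with ratios of 0.982 and 0.918 in DA 1 and LEW 1 (10 CPM added to both), on 19 and 35 lymphocyte-like UMIs. Of the thinned cells (1000 UMIs each) 4.97 to 7.86% of hepatocyte-like cells held a Hal UMI, against 4.18 to 7.02% of endothelial-like cells, whose median depth was 1651 to 2297 UMIs against 1822 to 2615.

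In nuclei no member was higher in hepatocyte-like than in both other classes in all 4 rats. For Sds, Aspg, Got1, Prodh1 and Aass this rests on LEW 1 alone. In DA 1, DA 2 and LEW 2 they were higher in the hepatocyte class than in both others. Sds in hepatocyte-like nuclei stood at 1443 and 701 CPM in DA 1 and DA 2 and at 353 and 1076 CPM in LEW 1 and LEW 2. Macrophage-like nuclei of the same rats held 1288, 647, 605 and 696 CPM, so LEW 1 had more Sds per UMI outside the hepatocyte class than in it. Got1 showed the same order, with 375 CPM in hepatocyte-like and 630 CPM in macrophage-like nuclei of LEW 1. For Hal the share of thinned nuclei with a UMI was 8.35, 15.1, 9.94 and 7.02% in the hepatocyte class and 18.2, 10.8, 21.6 and 11.2% in the macrophage class (66 to 93 nuclei a rat), so by share it was at or below that background in 3 of 4 rats. Endothelial-like nuclei held a Hal UMI in 3.50 to 5.22%. Median depth was 1531 to 2123 UMIs in the hepatocyte class, 1308 to 2692 in the macrophage class and 1273.5 to 1562 in the endothelial class.

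Within the hepatocyte class the members were counted mostly in nuclei poor in Alb, the albumin transcript. Nuclei were parted at the median Alb share of each library. Sds stood at 2215, 1048, 542 and 1399 CPM in the Alb-poor nuclei of DA 1, DA 2, LEW 1 and LEW 2 and at 193, 61.8, 45.6 and 574 CPM in the Alb-rich nuclei. Got1 stood at 4381, 1694, 550 and 557 CPM against 381, 162, 88.5 and 252 CPM. Every member was higher in the Alb-poor nuclei of all 4 rats, and these nuclei were also deeper, with medians of 1986 to 3092 UMIs against 1258 to 1426. How many of all genes had that order was not counted, so it is not given as a trait of the members.

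**Figure D1:**
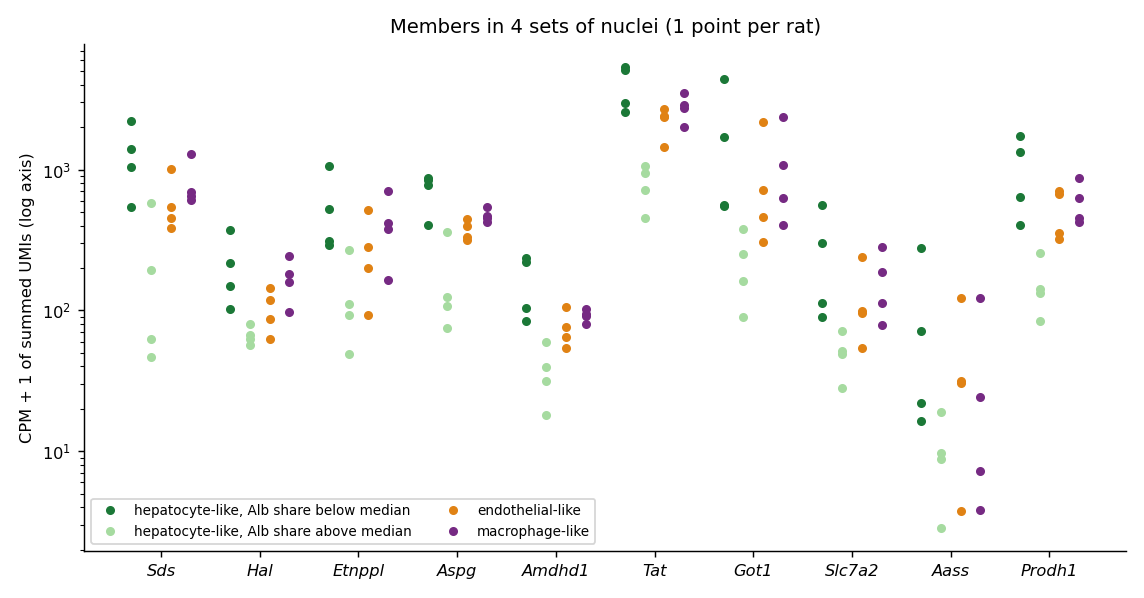
Summed level of each member (CPM + 1, log axis) in 4 sets of nuclei, with 1 point per rat (2 DA, 2 LEW): hepatocyte-like nuclei with an Alb share below or above the median of their library, endothelial-like nuclei and macrophage-like nuclei. Sds lies between 542 and 2215 CPM in the Alb-poor hepatocyte-like nuclei and between 45.6 and 574 CPM in the Alb-rich ones, and macrophage-like nuclei, at 605 to 1288 CPM, lie within the range of the Alb-poor ones.

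The first comparison asked whether the members differed between DA and LEW hepatocytes. UMIs of hepatocyte-like TLH cells were summed per rat and DA was set against LEW, 2 rats a strain, in a fit over 9871 genes, of which 399 (4.04%) passed an adjusted p of 0.05. By the names attached to these libraries DA rats were 10 and LEW rats 13 weeks old. Strain and that age cannot be told apart here. Cells of DA 1 were kept from 1500 UMIs and those of DA 2 and both LEW rats from 2000. The methods state 1500 for LEW, which would keep 12124 and 7857 cells of LEW 1 and LEW 2 in place of 5457 and 3844, and with it 493 genes were called, Etnppl among them (log2 1.05, edgeR adjusted p = 0.030), and Tat was not (log2 0.96, edgeR adjusted p = 0.053). Leaving out LEW 1 left 107 calls, LEW 2 125 and DA 2 227. One member, Etnppl, rose in DA, against 2.13% of all genes that did so, and no member was called higher in LEW, against 1.91%. Etnppl stood at 67.1 and 74.4 CPM in DA and at 29.3 and 37.3 CPM in LEW. Its log2 difference was 1.07 ± 0.16 (SE), with an adjusted p of 0.012 in edgeR's quasi-likelihood test. The call was lost without LEW 1 (log2 0.89) and when each library was clustered on its own (log2 0.79, edgeR adjusted p = 0.26). Clustering each library on its own left 1547 cells of LEW 2 in an unnamed cluster. Its sum then held 1378 in place of 2917 hepatocyte-like cells.

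Tat was the member with most UMIs in TLH cells, with 783 and 1133 CPM in DA and 545 and 416 CPM in LEW. The strains did not overlap, yet the log2 difference of 0.98 ± 0.22 missed the threshold (edgeR adjusted p = 0.067). Without DA 1 it was 1.24 and passed (edgeR adjusted p = 0.0068), and it was also called by DESeq2 (adjusted p = 0.0017) and with no filter on low counts (edgeR adjusted p = 2.7e-09). Got1 stood at 182 and 258 CPM in DA and at 124 and 147 CPM in LEW, a log2 difference of 0.68 ± 0.20 (edgeR adjusted p = 0.12) that passed without DA 1 (log2 0.93, edgeR adjusted p = 0.027) and with no filter (edgeR adjusted p = 0.00035).

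Prodh1 (95.9 and 105 CPM in DA, 77.7 and 70.4 in LEW) and Aspg (63.9 and 68.8 CPM against 51.4 and 51.7) also lay higher in both DA rats, with log2 differences of 0.42 ± 0.14 and 0.34 ± 0.13. Neither passed (edgeR adjusted p = 0.13 and 0.19). The median log2 difference was 0.41 over the members and 0.01 over all genes. Etnppl, Aspg, Tat, Got1 and Prodh1 had both DA rats above both LEW rats, an order found in 28.9% of all genes. Hal and Aass had both LEW rats above both DA rats, as had 24.0% of all genes, with log2 differences of -0.37 ± 0.18 and -0.21 ± 0.27 that did not pass (edgeR adjusted p = 0.30 and 0.71). Sds varied more between rats of a strain than between strains, with 85.5 and 136 CPM in DA and 67.6 and 140 CPM in LEW, and its interval for the log2 difference ran from -1.32 to 1.48. Its sign turned without DA 2 (-0.34) and without LEW 1 (-0.37). Amdhd1 (31.8 and 27.3 CPM in DA, 16.7 and 27.5 in LEW) and Slc7a2 (10.1 and 17.9 CPM against 11.8 and 7.45) overlapped between strains as well.

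Endothelial-like and other named cells of the same libraries followed DA above LEW for Etnppl too, with 56.7 and 42.3 CPM in DA and at most 19.2 CPM in LEW. Tat in these cells stood at 444 and 706 CPM in DA and 288 and 225 CPM in LEW. The part of free RNA in the strain differences was not tested.

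In nuclei the same comparison called 136 of 10651 genes (1.28%) and no member, and 281 and 218 genes without DA 2 and without LEW 2. No member passed in the direction of DA, as 0.742% of all genes did. All 10 members had a higher mean in DA, and 6 of them, Amdhd1, Tat, Got1, Slc7a2, Aass and Prodh1, had both DA rats above both LEW rats, against 18.9% of all genes. At an unadjusted p under 0.05 the fit held 5 members, against 10.4% of all genes. The median log2 difference was 0.99 over the members and -0.03 over all genes.

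Aass had the largest difference, with 177 and 48.3 CPM in DA 1 and DA 2 against 10.3 and 15.9 CPM in LEW 1 and LEW 2. The DA rats also differed from each other by more than the LEW rats did. Its log2 difference was 3.16 ± 0.63 (edgeR adjusted p = 0.068), and it passed without DA 1 (log2 1.80, edgeR adjusted p = 0.0081) and without DA 2 (log2 3.84, edgeR adjusted p = 4.1e-10). Got1 stood at 2853 and 1155 CPM in DA and at 375 and 437 CPM in LEW, a log2 difference of 2.33 ± 0.52 (edgeR adjusted p = 0.063). Slc7a2 stood at 370 and 211 CPM in DA and at 80.0 and 74.4 CPM in LEW, a log2 difference of 1.91 ± 0.43 (edgeR adjusted p = 0.063). Both passed without DA 2, at log2 2.87 (edgeR adjusted p = 0.011) and 2.31 (edgeR adjusted p = 0.023). DESeq2 called Aass, Got1, Slc7a2 and Prodh1, with adjusted p of 2.1e-06, 4.5e-05, 0.00048 and 0.0057, among 219 genes called of 17779 tested. With no filter on low counts edgeR called Aass, Got1 and Slc7a2 (adjusted p of 7.6e-14, 0.00060 and 0.0010), among 531 genes called of 17779 tested. Aass also passed with the 5% of nuclei with most UMIs left out (edgeR adjusted p = 0.011). Slc7a2 passed with each library clustered on its own (edgeR adjusted p = 0.047). Clustered so, LEW 1 held 4250 in place of 4961 hepatocyte-like nuclei and DA 2 held 1969 in place of 2203. A cluster of 197 LEW 1 nuclei led by Slc7a2 was left unnamed there and was not summed.

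Prodh1 held 877 and 1170 CPM in DA nuclei and 284 and 485 CPM in LEW nuclei (log2 1.41 ± 0.42, edgeR adjusted p = 0.17), and passed without LEW 2 (log2 1.71, edgeR adjusted p = 0.044). Amdhd1 held 160 and 154 CPM against 57.6 and 85.4 CPM (log2 1.14 ± 0.34, edgeR adjusted p = 0.17). Tat held 3671 and 3559 CPM against 2011 and 1974 CPM, and rats of a strain lay close together (log2 0.84 ± 0.41, edgeR adjusted p = 0.52). Sds, Hal, Etnppl and Aspg overlapped between strains, with log2 differences of 0.42 to 0.65. For Sds, Hal and Etnppl the sign turned when 1 rat was left out, to -0.07 and -0.59 for Sds and Etnppl without DA 1 and to -0.12 for Hal without DA 2. Nuclei named as other classes also had DA above LEW for Got1, with 2005 and 761.9 CPM in DA and 490 and 318 CPM in LEW.

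**Figure D2:**
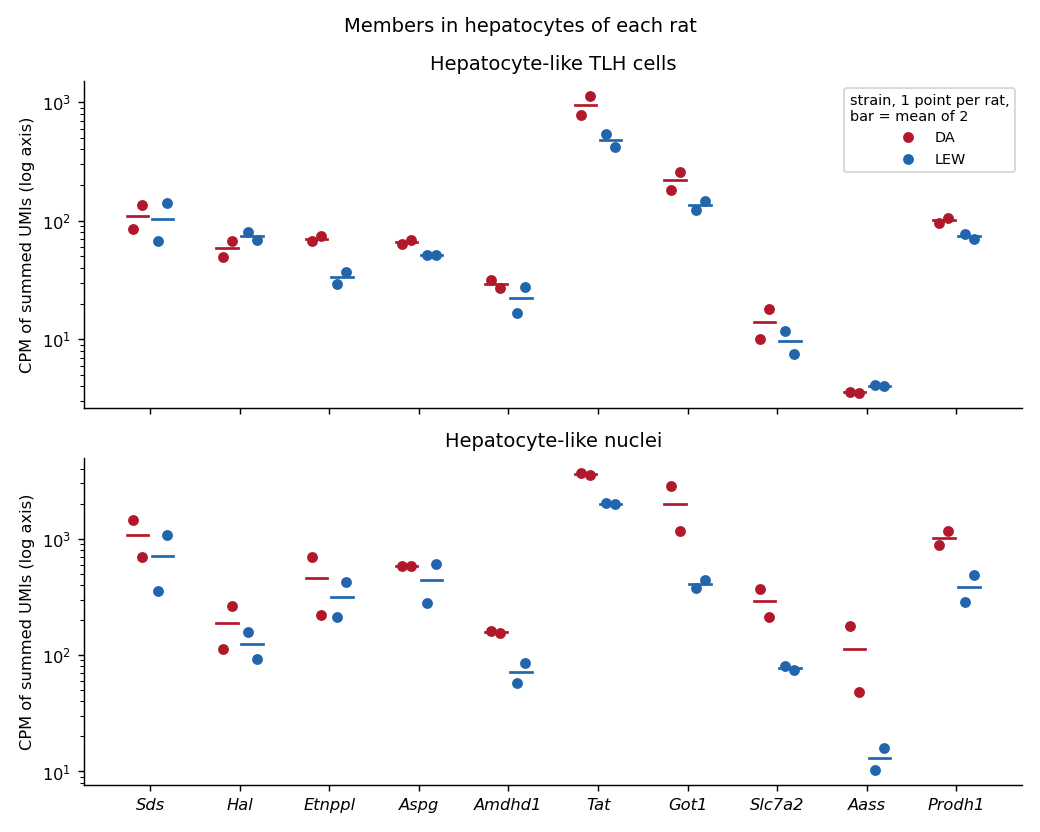
Level of each member (CPM of UMIs summed over hepatocyte-like cells or nuclei, log axis) in each rat, TLH cells above and nuclei below, with 1 point per rat and a bar at the mean of 2 rats of a strain. In TLH cells Etnppl separates DA (67.1 and 74.4 CPM) from LEW (29.3 and 37.3 CPM), and in nuclei Got1, Slc7a2 and Aass have the widest gaps between strains.

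Whether the strain difference itself differed between TLH cells and nuclei was asked with an interaction term. It called 1 of 11577 genes (0.00864%) and no member, and 4 members had an unadjusted p under 0.05, against 4.41% of all genes. Aass came closest, its DA-to-LEW difference being 3.42 ± 0.91 lower on the log2 scale in cells than in nuclei (edgeR adjusted p = 0.94), and without DA 2 of the nuclei it passed (log2 -4.07, edgeR adjusted p = 0.0048), as it did with no filter (log2 -3.38, edgeR adjusted p = 0.00069). Got1 followed at -1.69 ± 0.61, Slc7a2 at -1.43 ± 0.55 and Prodh1 at -1.04 ± 0.41 on the log2 scale, all short of the threshold (edgeR adjusted p of 1.0). DA and LEW TLH cells and nuclei came from different rats.

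Hepatocyte-like TLH cells were then set against hepatocyte-like nuclei. Kind of library also differed in chemistry, sequencer and handling of the tissue, which cannot be told apart here, and 72.3% of the 11577 genes were called in either direction. In nuclei 9 of 10 members were higher, against 38.3% of all genes, and none was higher in cells, against 34.1%. The members were listed with results of these nuclei known, so this direction supports nothing about the list. The median log2 difference, cells minus nuclei, was -2.04 over the members and -0.11 over all genes.

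Slc7a2 had the largest difference, from 7.45 to 17.9 CPM in cells and from 74.4 to 370 CPM in nuclei, a log2 difference of -2.85 ± 0.38 (edgeR adjusted p = 6.4e-05). Aspg (51.4 to 68.8 CPM in cells, 278 to 610 CPM in nuclei) had a log2 difference of -2.23 ± 0.22 (edgeR adjusted p = 8.3e-07). For every member, no cell library reached the lowest nuclei library. How many of all genes had that order was not counted. Tat, the member with most UMIs in both, ranged from 416 to 1133 CPM in cells and from 1974 to 3671 CPM in nuclei (log2 -1.12 ± 0.22, edgeR adjusted p = 0.00046). Sds, Etnppl, Prodh1, Got1 and Amdhd1 had log2 differences of -2.15, -2.11, -1.97, -1.54 and -1.19.

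Aass had a log2 difference of -2.62 ± 0.93 (edgeR adjusted p = 0.044), and that call was lost in 5 of the 8 fits that left out 1 library, namely DA 1, DA 2 or LEW 2 of the cells (log2 -2.08, -2.05 and -2.87) and DA 2 or LEW 2 of the nuclei (log2 -2.85 and -3.00), with adjusted p of up to 0.16. Hal was the one member not called, at 49.4 to 80.9 CPM in cells and 92.0 to 263 CPM in nuclei (log2 -0.35 ± 0.31, edgeR adjusted p = 0.33). It passed when LEW 2 of the nuclei was left out (log2 -0.66, edgeR adjusted p = 0.026). Of the 60 other genes of amino acid breakdown and transport tested, 33 were higher in cells and 11 in nuclei, where 34.1% and 38.3% of all genes were, with a median of 0.65 against -0.11.

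Zonation was measured within each library. Hepatocyte-like nuclei were ranked by the periportal landmarks of the study (Tf, Hmgcs1, Ass1, Arg1, Gls2, Srd5a1, Orm1) less its pericentral landmarks (Oat, Sult1e1, Cyp2e1, Glul) and parted into 3 equal groups, and the ratio is the log2 of CPM + 10 in the periportal group over CPM + 10 in the pericentral group. No member is a landmark. With each landmark left out of its own score, Glul, the glutamine synthetase of the cells next to the central vein, had a mean ratio of -2.76 in nuclei and Srd5a1 one of 1.26, while Tf was at -0.05.

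Aspg and Sds were the most zonated members in nuclei. Aspg stood at 1017, 1039, 415 and 941 CPM in the periportal group of DA 1, DA 2, LEW 1 and LEW 2 and at 147, 141, 167 and 238 CPM in the pericentral group, a ratio of 2.18 ± 0.72 (SD, n = 4) or 4.52-fold. Sds stood at 2388, 1189, 536 and 1734 CPM against 399, 225, 204 and 390 CPM, a ratio of 2.09 ± 0.52 or 4.27-fold. Among 6223 genes ranked by mean ratio, they were at places 3 and 4 from the periportal end. The ratio was positive in all 4 rats for both, and lowest in LEW 1.

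Amdhd1 (1.69 ± 0.42), Etnppl (1.62 ± 0.37) and Hal (1.49 ± 0.49) came next, at places 10, 13 and 15. Hal and Amdhd1, which act in the same pathway and are neighbours on rat chromosome 7 in the GRCr8 gene table, had mean ratios of 1.49 and 1.69. Slc7a2 was weaker, at 0.85 ± 0.63 and place 50, and ran from 0.18 in LEW 2 to 1.46 in DA 1. Got1 was at 0.49 ± 0.54, with a negative ratio in LEW 1 (-0.21). In the order of the members, the steps from Sds to Amdhd1 and from Hal to Slc7a2 exceeded the spread of the difference over rats, and the other steps did not.

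The mean ratios of Tat, Aass and Prodh1 were near 0. Tat stood at 4214, 3582, 1663 and 1974 CPM in the periportal group of DA 1, DA 2, LEW 1 and LEW 2 and at 2881, 3341, 2611 and 1864 CPM in the pericentral group, a mean ratio of 0.02 ± 0.49. Prodh1 was at -0.09 ± 0.46 and Aass at 0.10 ± 0.15. The ratios of Tat and Prodh1 were highest in DA 1 and lowest in LEW 1, where both were below 0. The median ratio of all genes ran the same way, from 0.10 in DA 1 to -0.18 in LEW 1, and the Alb share was 3.24 against 3.17% in DA 1 and 5.84 against 3.02% in LEW 1. Their part in these ratios was not tested.

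At least 2-fold periportal in every rat were 4 members, Aspg, Sds, Amdhd1 and Etnppl, against 0.209% of all genes, and no member was 2-fold pericentral in every rat, as 0.321% of all genes were. These shares describe members listed as periportal and test nothing. Another set of landmarks gave larger ratios for all 10 members in nuclei. With it (Cps1, Hsd17b13, Cyp2f4, Pck1 and others against Cyp1a2, Slc1a2, Rhbg, Lgr5 and others) the nuclei gave 3.50 for Sds, 3.28 for Aspg, 0.62 for Tat, 0.61 for Aass and 0.46 for Prodh1. With that set the periportal nuclei were also deeper, from 2116 against 2060 UMIs in LEW 2 to 2162 against 1353 in DA 1 by the median, and the median ratio of all genes rose to between 0.02 and 0.21, so depth moved with the ratios. In the groups of the first landmarks median depth was 1736 against 1468 UMIs in DA 1, 1842 against 1788 in DA 2, 1508 against 1617 in LEW 1 and 1958 against 2273 in LEW 2, and the Alb share was 3.24 to 5.84% against 1.94 to 3.17%. Within the Alb-rich nuclei alone Sds was at 1.49, Aspg at 1.63 and Tat at 0.36.

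**Figure D3:**
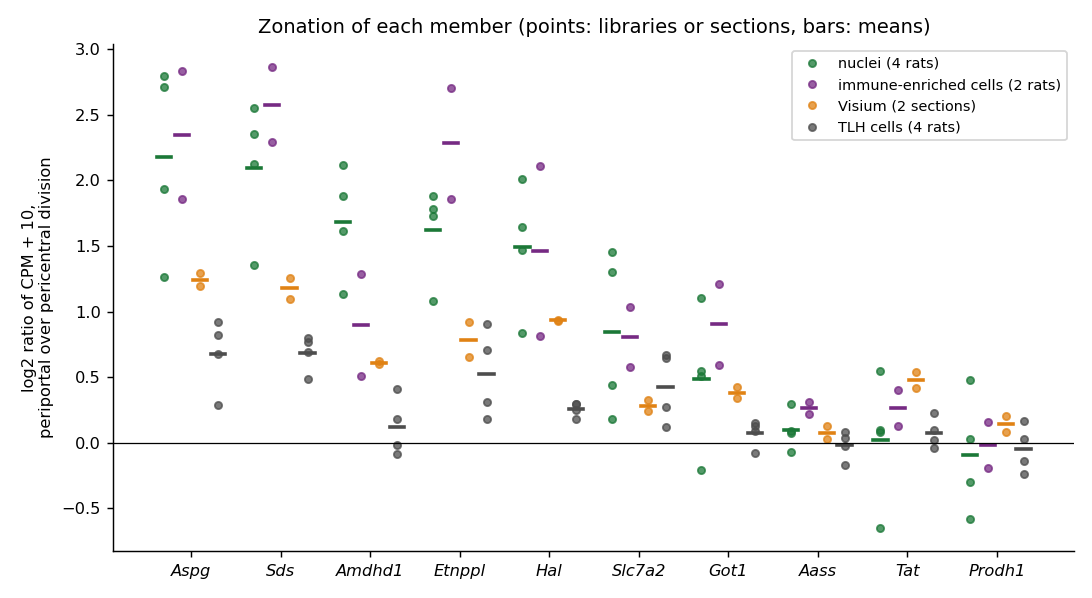
Zonation of the members, as log2 of CPM + 10 in the periportal over CPM + 10 in the pericentral group of each library or section (points) with the mean (bars), for nuclei of 4 rats, immune-enriched cells of 2 rats, 2 Visium sections and TLH cells of 4 rats. Aspg and Sds are highest in nuclei (2.18 and 2.09), the means of Tat, Aass and Prodh1 lie near 0 there, and TLH cells show the smallest ratios for Aspg, Sds, Amdhd1, Etnppl and Hal.

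In hepatocyte-like cells of the immune-enriched libraries Sds and Aspg were again the members with the highest ratios. Sds stood at 174 CPM in the periportal and 27.5 CPM in the pericentral group of LEW, and in DA 152 UMIs against 1 UMI were counted, so that the ratio there rests on the 10 CPM added. The mean ratio was 2.58 over the 2 rats. Aspg stood at 133 and 10.0 CPM in DA and 102 and 20.7 CPM in LEW, a mean ratio of 2.35. Etnppl (2.28) and Hal (1.46) followed. Amdhd1, which came next to Sds in nuclei, was at 0.90 ± 0.55 (SD, n = 2), beside Got1 at 0.90 ± 0.44. Sds, Etnppl and Aspg were at least 2-fold periportal in both rats, against 0.557% of all genes. No member was 2-fold pericentral in both, as 1.11% of all genes were. The periportal groups were far deeper than the pericentral ones here, with medians of 36725 against 2283 UMIs in DA and 34832 against 3530.5 UMIs in LEW. Among cells of at least 10000 UMIs Sds, Aspg and Etnppl were at 2.34, 2.54 and 2.10. After thinning to 2000 UMIs a cell, with 10 CPM added as before, they were at 1.14, 1.09 and 1.099. Then 1 member stayed 2-fold in both rats, and the share of all genes was not counted after thinning.

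In TLH cells Sds and Aspg led as well, with smaller ratios. Sds stood at 120, 169, 84.6 and 184 CPM in the periportal group of DA 1, DA 2, LEW 1 and LEW 2 and at 64.7, 100, 57.6 and 104 CPM in the pericentral group, a ratio of 0.69 ± 0.14 (SD, n = 4). Aspg was at 0.68 ± 0.28, Etnppl at 0.53 ± 0.34, Slc7a2 at 0.43 ± 0.27 and Hal at 0.26 ± 0.05, and each was positive in all 4 rats. No member was 2-fold periportal in every rat, against 0.0419% of all genes. Glul itself reached only -0.70 in these cells. The mitochondrial share of UMIs was 8.03 to 14.2% in the periportal groups and 5.61 to 7.91% in the pericentral groups, and its part in the ratios was not tested.

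On Visium, spots of at least 5000 UMIs (2260 in section A, 2196 in section B) were ranked by the same score and cut into 10 bins, and the 3 bins at each end were compared. Median depth was 14708 and 15883 UMIs in the periportal bins of sections A and B and 14219 and 13991 in the pericentral bins. A spot holds several cells, so fewer cells of a zone and less RNA per cell cannot be told apart. Aspg stood at 115 CPM in the periportal and 44.6 CPM in the pericentral bins of section A and at 113 and 40.05 CPM in section B, with ratios of 1.198 and 1.29. Sds stood at 121 and 51.3 CPM in section A and 142 and 53.6 CPM in section B, with ratios of 1.099 and 1.26. These were the 2 members at least 2-fold periportal in both sections, against 0.213% of all genes, and none was 2-fold pericentral, against 0.251%.

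Hal was nearly alike in both sections at 0.93, and was the member with the second most UMIs, 229 and 237 CPM in the periportal bins. Etnppl (0.65 and 0.92) and Amdhd1 (0.60 and 0.62) followed. Tat, which ran from -0.65 in LEW 1 to 0.55 in DA 1 in nuclei, was higher in the periportal bins of both sections, at 557 and 565 CPM in the periportal and 415 and 386 CPM in the pericentral bins, with ratios of 0.42 and 0.54 that lie within that range. Got1 (0.43 and 0.34) and Slc7a2 (0.32 and 0.24) were lower, and Prodh1 (0.08 and 0.21) and Aass (0.03 and 0.13, on 19 to 36 UMIs a group) were near 0. Wistar sections and DA and LEW nuclei differ in strain as well as in method, which cannot be told apart.

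**Figure D4:**
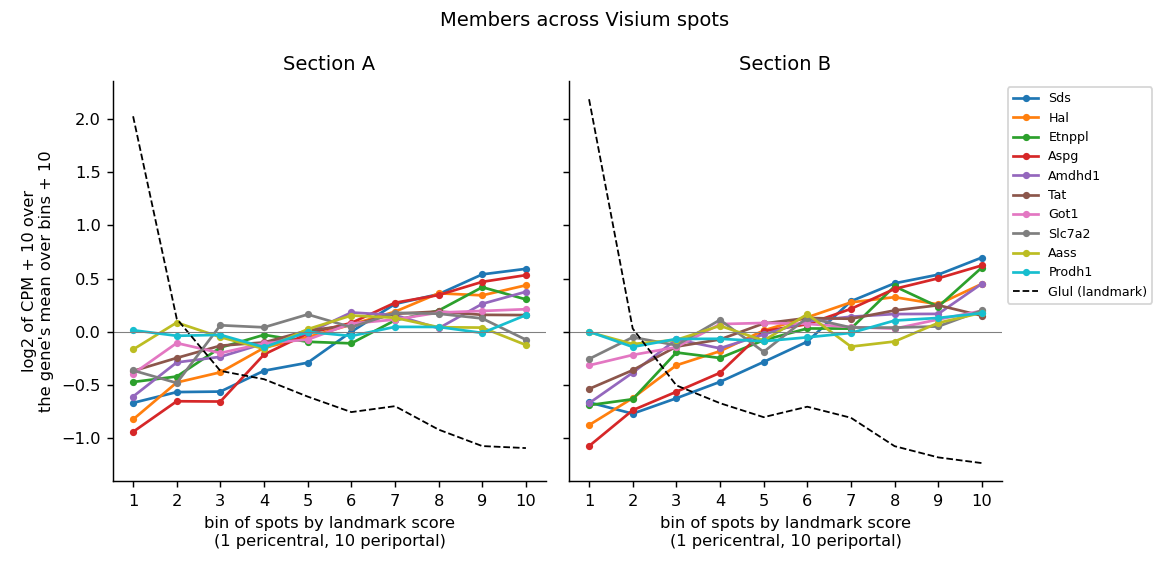
Profile of each member over 10 equal bins of Visium spots ordered from pericentral (bin 1) to periportal (bin 10) by the landmark score, as log2 of CPM + 10 in the bin over the mean of the bins + 10, in sections A and B, with the landmark Glul as a dashed line. Sds, Aspg, Hal, Etnppl and Amdhd1 climb over most bins in both sections, and Glul falls steeply from bin 1 to bin 3.

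The last question was whether the members were counted in the same nuclei. Hepatocyte-like nuclei were thinned to 1000 UMIs each, and for each pair the number of nuclei with both was divided by the number that the 2 shares alone would give. In every rat 43 of 45 member pairs had a ratio above 1, and the median over pairs was 1.88. Of 1197378 pairs among 1548 other genes, each counted in at least 5% of the nuclei of every rat and in no more nuclei than Tat, 22.1% were above 1 in every rat and 23.2% below. Members were not held to that 5% limit, and Aass lay below it at least in both LEW rats. Over all such pairs of a rat the median was 0.997 to 1.006 in the 4 rats, and 95% of pairs lay below 1.70, 1.70, 1.49 and 1.52 in DA 1, DA 2, LEW 1 and LEW 2.

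Sds with Amdhd1 had the highest ratio, 2.83 ± 0.71 (SD, n = 4). Both were counted in 161, 138, 86 and 89 nuclei of DA 1, DA 2, LEW 1 and LEW 2, where the shares alone would give 66.9, 44.6, 23.2 and 41.9. Sds with Aspg reached 2.82 ± 0.72, Sds with Etnppl 2.66 ± 1.04 and Aspg with Amdhd1 2.60 ± 0.57. Hal and Amdhd1, of the same pathway, reached 2.08 ± 0.38. These are pairs among the members with the highest zonation ratios. Pairs with less zonated members also exceeded Hal with Amdhd1. Among them were Amdhd1 with Slc7a2 (2.39), Sds with Slc7a2 (2.32) and Sds with Aass (2.32).

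Pairs with Tat ran from 1.33 with Hal to 1.52 with Aass. A ratio cannot exceed 1 over the share of the more frequent gene. A Tat UMI was in 50.4 to 71.1% of nuclei. The limit was therefore 1.41, 1.57, 1.98 and 1.51 in DA 1, DA 2, LEW 1 and LEW 2. Pairs with Tat thus cannot be ranked against the others. Other members counted in many nuclei, such as Got1, are bound by such a limit too, and it was not worked out for them. The pairs that did not exceed 1 in every rat were Hal with Aass, which shared no nucleus in LEW 2 (2.57 given by the shares), and Amdhd1 with Aass, at 0.996 in its lowest rat. Aass was in 0.665 to 11.2% of nuclei, so its pairs rest on few nuclei.

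Members and pericentral landmarks were counted together less often than their shares would give in 28 of 40 pairs in every rat, beside the 23.2% of other gene pairs, with a median ratio of 0.81. In a stricter set of nuclei, with a lower limit of 1500 UMIs and an upper one of 5% for the mitochondrial share, 30 pairs, and in Alb-poor nuclei 31 and in Alb-rich nuclei 22, were below 1 in every rat. Without thinning 12 of 40 pairs were below 1 and 9 above 1 in every rat, with a median of 0.99. Within the periportal, middle and pericentral groups 13, 16 and 18 were below 1. The 23.2% belongs to the full set of thinned nuclei, and no share was counted for these other sets. Aspg and Glul shared 5, 6, 26 and 31 nuclei in DA 1, DA 2, LEW 1 and LEW 2 against 25.1, 27.6, 49.4 and 74.6 from the shares, a ratio of 0.34 ± 0.16. Tat with Glul was at 1.03 ± 0.04, and Prodh1 with Glul, at 1.15 ± 0.06, was above 1 in all 4 rats. In the thinned nuclei Sds, Hal, Etnppl, Aspg and Amdhd1 were below 1 with all 4 pericentral landmarks in every rat.

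**Figure D5:**
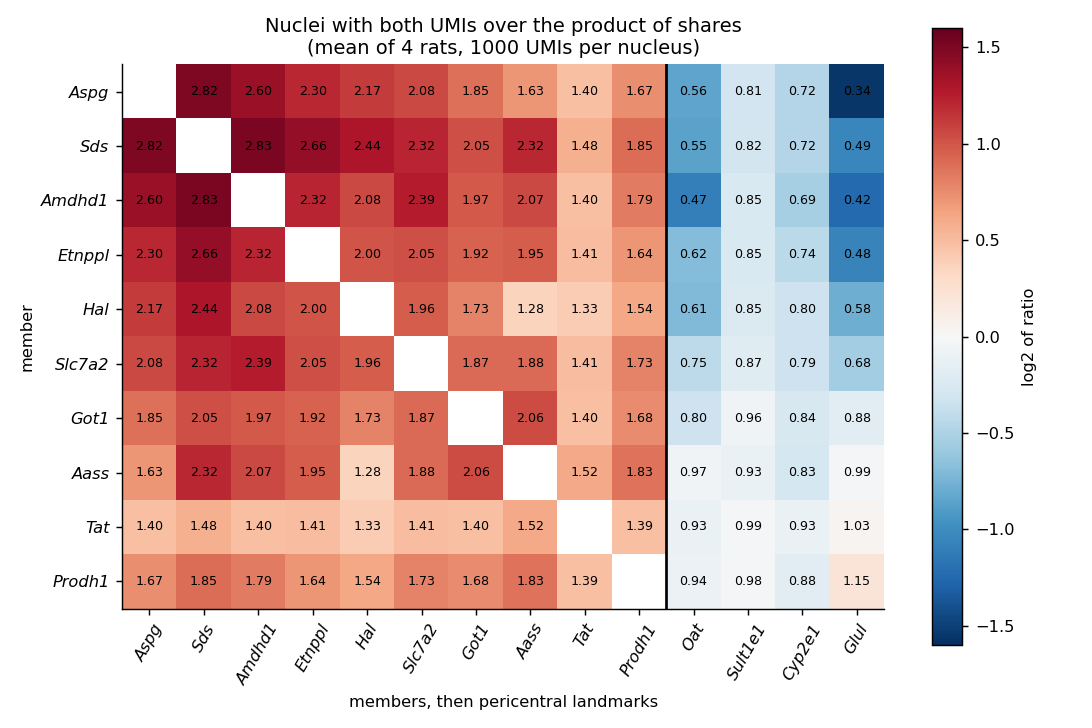
Co-detection in hepatocyte-like nuclei thinned to 1000 UMIs, as the mean over 4 rats of the nuclei with both UMIs over the number given by the shares, for pairs of members (left of the line) and for members with pericentral landmarks (right of it), coloured on a log2 scale. Ratios among Sds, Aspg, Amdhd1 and Etnppl run from 2.30 to 2.83, those of Tat with other members from 1.33 to 1.52, and Aspg with Glul is at 0.34.

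The mean number of members counted per thinned nucleus was 3.04, 2.44, 1.42 and 2.33 in DA 1, DA 2, LEW 1 and LEW 2. Nuclei with none made up 21.7, 24.6, 35.0 and 19.1%, and nuclei with 5 or more made up 34.3, 22.0, 7.30 and 16.8%. The SD of the number per nucleus, 2.64, 2.28, 1.63 and 1.90, was larger than the 1.33, 1.24, 1.02 and 1.21 that the shares alone would give. Within the Alb-poor nuclei the median over pairs was 1.31 and 37 of 45 pairs exceeded 1 in every rat, within the Alb-rich nuclei it was 2.16 with 28 of 45, and in the stricter set it was 1.37 with 41 of 45. Within the periportal, middle and pericentral groups it was 1.68, 1.85 and 1.96. Other gene pairs were not counted in these smaller sets, so no share stands beside 37, 28 and 41 of 45.

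Genes that ran with the members over Visium spots were found by their correlation with the mean of the 10 scaled members. The correlation was taken over the spots of a section and averaged over both sections. It covered 6129 genes, with the members and the landmarks of the study left out, so none of these could appear among them. The other set of landmarks was not left out, and Pck1 belongs to it. The 10 highest were Spink1l (0.46), Pck1 (0.44), Alb (0.43), Gpx1 (0.42), Apoc3 (0.41), AABR07004549.1 (0.41), Fabp1 (0.39), Bhmt (0.39), Sult2a6 (0.34) and Tdo2 (0.33). Pck1 makes phosphoenolpyruvate for glucose synthesis and Tdo2 opens the breakdown of tryptophan. Single members correlated weakly with the mean of the other 9, from 0.01 for Aass to 0.26 for Hal in section B, and spots share depth and a section, so these values describe the spots and carry no test.

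The wider list of amino acid breakdown and transport held 66 other genes. In TLH cells 5 of the 60 tested differed between strains, 3 higher in DA and 2 higher in LEW, where 2.13% and 1.91% of all genes were, with a median of 0.01 over the list as over all genes. The smallest adjusted p belonged to Slc25a13, a mitochondrial aspartate and glutamate carrier (log2 -1.30 ± 0.18, edgeR adjusted p = 0.0080), Tdo2 (log2 0.86 ± 0.12, edgeR adjusted p = 0.0093) and Acadsb, of branched-chain breakdown (log2 -1.33 ± 0.20, edgeR adjusted p = 0.012). In nuclei none of 60 passed, 7 had an unadjusted p under 0.05 (10.4% of all genes did), and the smallest adjusted p in the list belonged to the members Got1, Slc7a2 and Aass.

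In nuclei the most periportal genes of that list beside the members were Gldc, of glycine cleavage (1.12 ± 0.34), the transporter Slc38a4 (1.07 ± 0.23), Uroc1, the histidine step between Hal and Amdhd1 (0.92 ± 0.20), Agxt (0.88 ± 0.33) and Tdo2 (0.81 ± 0.27). All 5 were positive on Visium too, at 0.63, 0.53, 0.44, 0.76 and 0.51. The most pericentral were Csad, of taurine synthesis from cysteine (-1.88 ± 0.33 in nuclei, -2.35 on Visium), Hgd, a late step of tyrosine breakdown (-0.87 ± 0.32), and Shmt2 (-0.53 ± 0.20). Over the 55 others ranked in nuclei the median ratio was -0.03, the same as over all genes, and none was 2-fold periportal in every rat.

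Of 13 genes that respond to fasting, glucagon or glucocorticoids, 3 of 12 tested differed between strains in TLH cells, where 4.04% of all genes did. The list was chosen with earlier results of these data known and the genes named from it after their values were seen, so these counts support nothing about the list. Cebpb (log2 0.99 ± 0.17, edgeR adjusted p = 0.021) and Tsc22d3 (log2 2.21 ± 0.32, edgeR adjusted p = 0.033), the latter a glucocorticoid target, were higher in DA, and Fgf21 was higher in LEW (log2 -1.96 ± 0.37, edgeR adjusted p = 0.030). In nuclei Fgf21 (log2 -3.11 ± 0.43, edgeR adjusted p = 0.0047) and Pdk4 (log2 1.73 ± 0.36, edgeR adjusted p = 0.044) passed, against 1.28% of all genes. Against nuclei, 7 of the 13 were lower in TLH cells and none higher, where 38.3% of all genes were lower and 34.1% higher in cells.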

How the data were processed

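The authors sequenced TLH and immune-enriched cells, nuclei and Visium sections, and the deposited files hold their raw counts, as UMIs per gene and barcode, made with Cell Ranger 3.1.0 and Space Ranger 1.1.0 on Rnor_6.0. Here cells were kept by the study's limits on UMIs and mitochondrial share, except that LEW TLH cells needed 2000 UMIs in place of the stated 1500, since 2000 leaves the study's number of cells, and mapped with Seurat 5.3.0 and sctransform 0.4.2 without the members. Clusters were named from marker lists. Clusters left unnamed were called hepatocyte-like where hepatocyte markers reached 1.2 times the CPM of other named cells and no other list passed 0.5 of theirs, a rule set with the counts in hand. No doublet caller was run, and an alternative left out the 5% of cells with most UMIs.

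UMIs were summed per rat and tested with edgeR 4.0.16 (quasi-likelihood, Benjamini-Hochberg adjusted p of 0.05). Error is the SE of that fit or the SD over rats. Fits were tested on simulated data. Alternatives used DESeq2 1.42.0, other filters, landmarks and thinning. Replicate numbers were not used as a block. The members and lists were chosen with earlier results of these data known. Named genes are the 10 members, the genes of the amino acid list with the 3 smallest adjusted p in a strain comparison or the 5 most periportal and 3 most pericentral ratios in nuclei, and the 10 genes most like the members on Visium. The landmarks of the study were left out of that last ranking, and those of the other set were not. The hormone genes called were named after their values were seen.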

Additional observations from a re-analysis of the deposited data

How the results depend on the processing

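In TLH cells the strain comparison, 399 genes, called 1115 with no filter on low counts, 184 with the replicate number as a block and 860 with that block crossed, and 107 to 301 with 1 rat left out. In nuclei, 136 genes, it called 219 with DESeq2, 531 with no filter, 518 with the replicate block and 58 in a stricter set of nuclei, and 129 to 281 with 1 rat left out. The replicate block added Aass, Got1, Slc7a2, Prodh1 and Amdhd1 in nuclei (edgeR adjusted p of 0.0019, 0.00067, 0.00069, 0.037 and 0.042) and took away Aass between cells and nuclei (0.12). With the crossed block Tat passed in TLH cells (0.00046). The rats share only a number, with correlations of their deviations of -0.147 in TLH cells and 0.0835 in nuclei, and the crossed pairing was added after seeing the data. The interaction called 27 genes with no filter and 0 to 5 with 1 library left out.

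The sign turned for Sds in TLH cells with each library clustered on its own (-0.27). That setting summed 1378 in place of 2917 hepatocyte-like cells of LEW 2. For Aass the sign turned in immune-enriched zonation below (-0.34) and above (-0.025) the median Alb share. It also turned for Aass after thinning to 2000 UMIs (-0.57), where Tat was at -0.073. With 1 library left out the log2 strain difference crossed 0 for Sds (-0.37 to 0.70) and Slc7a2 (-0.0096 to 0.90) in TLH cells, for Sds (-0.07 to 1.49), Hal (-0.12 to 1.11) and Etnppl (-0.59 to 1.22) in nuclei, and in the interaction for Sds (-1.41 to 0.11), Etnppl (-0.16 to 1.62), Aspg (-0.59 to 0.31) and Tat (-0.24 to 0.38, with -0.0897 without LEW 2 of TLH cells). The zonation ratio crossed 0 for Tat (-0.16 to 0.24) and Prodh1 (-0.29 to 0.07) in nuclei and for Aass (-0.05 to 0.03) and Prodh1 (-0.12 to 0.02) in TLH cells.

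At least 2-fold periportal in every library was 1 member in Alb-rich nuclei and 1 in immune-enriched cells thinned to 2000 UMIs. The mean over rats of the median co-detection ratio, 1.86, was 1.36 in the stricter nuclei, 1.29 in Alb-poor nuclei and 1.43 in the periportal group of the second landmarks, and 28 pairs exceeded 1 in every rat in Alb-rich nuclei and 28 in the pericentral group of the second landmarks. No share of all genes or of other gene pairs was counted in these settings, and the causes were not tested. Aass rests on 19 to 36 UMIs a group on Visium.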
